A study of Homo sapiens with 4 samples.

Results

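The DPPA (developmental pluripotency associated) genes and a small set of genes that mark the naive state of pluripotent stem cells were followed after inhibition of the mitotic kinase Aurora B in cultured embryonal carcinoma cells (line NCC-IT-A3). The members were 9 genes taken by name, DPPA2, DPPA3, DPPA4, DPPA5, OOEP, KLF4, KLF5, TFCP2L1 and SUSD2, out of 27685 gene IDs in each library, and each stood on 1 row of every file. RNA-seq had been done on 2 libraries of cells given 100 nM barasertib, an Aurora B inhibitor, for 4 days and on 2 libraries of cells given the solvent DMSO in its place. Both groups were the same cell line in RPMI medium with 10% serum, with no engineered allele named in the labels, as far as they say. Whether the replicates were cultured separately is not stated, and the p-values rest on the spread between libraries alone, which could be technical.

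Pluripotent cells of the embryo before implantation are called naive and those after implantation primed, and human stem cells in culture can be held in either state. DPPA2 and DPPA4 are nuclear proteins with a SAP domain that pair with each other on chromatin, and in the mouse they help to switch on genes of the cleavage-stage embryo. DPPA3 (STELLA) is a maternal and germ line protein that in the mouse keeps UHRF1 away from chromatin and so counters maintenance of DNA methylation. DPPA5 and OOEP are small proteins with a KH-type domain, and OOEP is a subunit of the subcortical maternal complex of the oocyte and early embryo. KLF4, KLF5 and TFCP2L1 are transcription factors tied to the naive state, and SUSD2 is a surface protein used to sort naive human cells.

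Values are TPM, transcript abundance per length scaled to 1000000 in each library. Fold and log2 changes are barasertib over DMSO computed on log2(TPM + 1), so that changes of low genes come out too small. A gene is said to have risen or fallen where its limma adjusted p was under 0.05 (Benjamini-Hochberg over 13938 genes, those averaging 1 TPM or more). The aligned bases behind a library, from the ratio of coverage to FPKM, were 4.53 to 4.59 Gb with barasertib and 4.22 to 4.43 Gb with DMSO, and log2 values of replicates differed with an SD of 0.25 in either group. Over all tested genes 3071 rose and 1037 fell, against 1668 and 1721 after median-of-ratios scaling and 1649 and 1590 after quantile normalisation. These scalings moved the median log2 change of all genes, 0.11 in TPM, by -0.11 and -0.12. Of 9 embryonal carcinoma markers, all tested, 4 rose, 2 fell and 3 did not pass, where 22.0% of all tested genes rose and 7.44% fell. Under all 3 scalings (TPM, median-of-ratios and quantile) 2 of these markers rose and 2 fell, against 10.7% and 7.05% of all tested genes. TNFRSF8 was the marker at a low level. POU5F1 was at 3999 and 3949 TPM with barasertib and 3708 and 3524 TPM with DMSO, and SOX2 at 381 and 398 against 456 and 446 TPM. DNMT3B, a DNA methyltransferase, was at 459 and 433 TPM with barasertib and 254 and 228 TPM with DMSO (limma adjusted p = 0.000652). LIN28A, which binds let-7 precursors, rose as well (log2 change 0.23, limma adjusted p = 0.0094), and CRIPTO, a NODAL co-receptor, fell (-0.32, limma adjusted p = 0.0126). TNFRSF8 (CD30), a surface marker of embryonal carcinoma, averaged 3.21 ± 0.297 TPM with barasertib and 3.39 ± 0.544 TPM with DMSO (SD, n = 2 each). AURKB, the gene of the drug target, averaged 106 ± 0.708 TPM with barasertib and 66.5 ± 2.22 TPM with DMSO (SD, n = 2 each).

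Of the 9 members, DPPA2, DPPA3, DPPA4, TFCP2L1 and SUSD2 rose and OOEP, KLF4 and KLF5 fell with barasertib, while DPPA5 lay below the filter. The share of all tested genes that passed was 29.5%, with 22.0% higher and 7.44% lower. The groups did not overlap for 8 of the 9 members in TPM, 5 higher and 3 lower, as for 68.8% of the tested genes (49.1% higher and 19.7% lower). DPPA3 and DPPA4 rose by at least 2-fold, as did 2.09% of the tested genes. After median-of-ratios scaling and after quantile normalisation as well, DPPA2, DPPA3, TFCP2L1 and SUSD2 still rose and OOEP, KLF4 and KLF5 still fell, against a background of 10.7% higher and 7.05% lower under all 3 scalings. DPPA4 did not pass after either rescaling (limma adjusted p = 0.0616 and 0.0602). Relative to the median of all genes, the log2 changes ran from 1.12 for DPPA3 to -0.54 for OOEP.

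**Figure D1:**
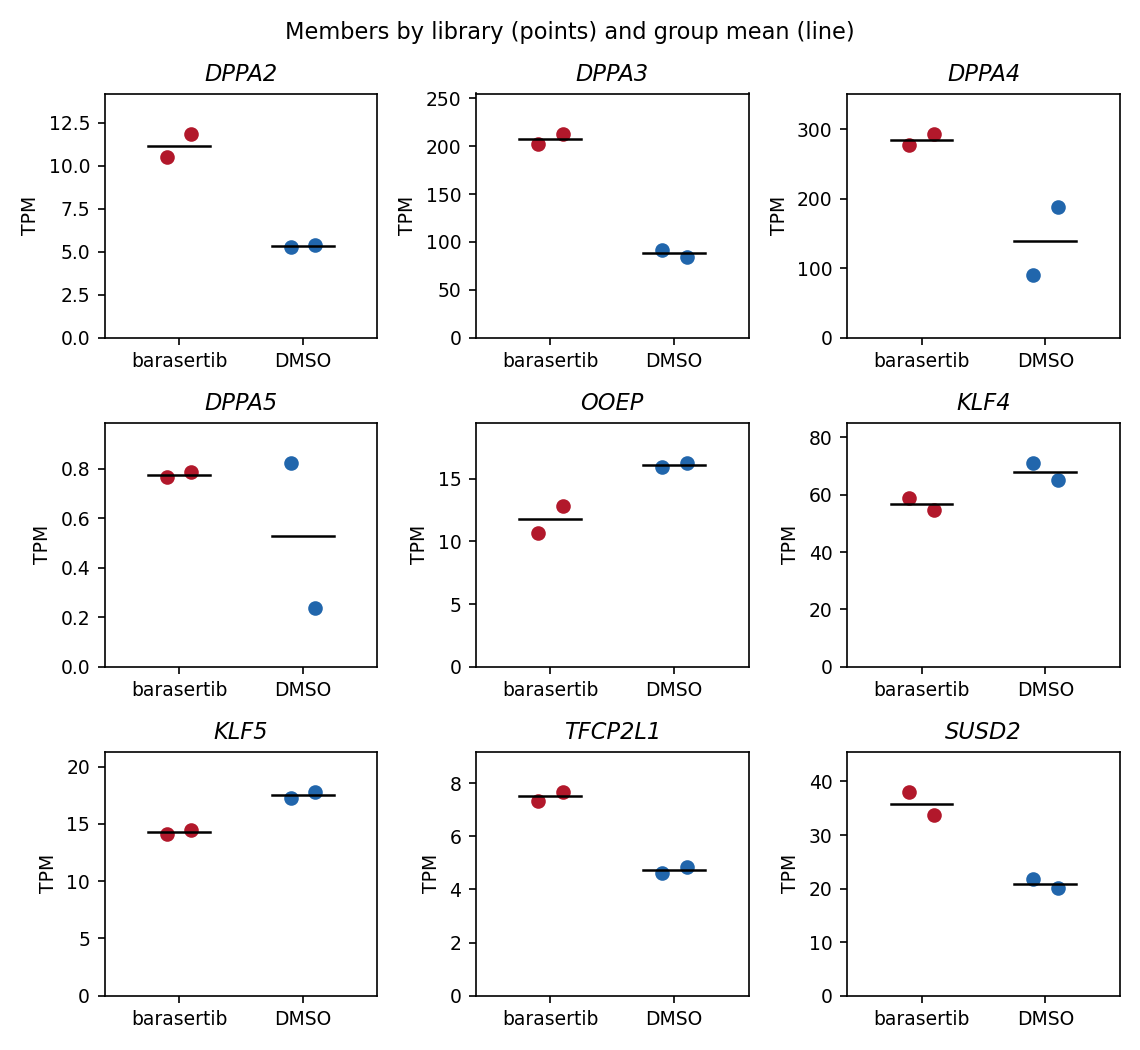
TPM of each member (vertical axes from 0, scaled per gene) in the 2 barasertib libraries (red, left) and the 2 DMSO libraries (blue, right), with group means as lines. DPPA2, DPPA3, TFCP2L1 and SUSD2 lie higher with barasertib with tight replicates, DPPA4 has DMSO libraries at 90.4 and 188 TPM, and OOEP, KLF4 and KLF5 lie lower with barasertib.

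The members spanned more than 2 orders of magnitude in level. With barasertib the mean order was DPPA4 (285 TPM), DPPA3 (207), KLF4 (56.8), SUSD2 (35.9), KLF5 (14.3), OOEP (11.8), DPPA2 (11.2), TFCP2L1 (7.50) and DPPA5 (0.777). OOEP and DPPA2 were the neighbours in that order whose barasertib libraries overlapped. With DMSO the order of means was the same, from DPPA4 at 139 TPM down to DPPA5 at 0.530 TPM, and there it was DPPA4 and DPPA3 that overlapped. Set among the 13938 tested genes, the barasertib mean of DPPA4 lay at the 96.5th percentile of levels (92.1 with DMSO) and that of DPPA3 at the 94.7th (86.3 with DMSO).

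DPPA3 showed the largest rise of the members. It had 202 and 213 TPM in barasertib libraries, against 91.4 and 84.7 TPM in DMSO libraries. Both treated libraries were more than double both controls, and the groups were far apart relative to their spread. The change was 2.34-fold (log2 1.23 ± 0.06 SE, 95% interval 1.09 to 1.37, limma adjusted p = 0.00027), and 1.09% of the tested genes, called or not, had a larger log2 change. Leaving out any 1 library kept the log2 change of DPPA3 between 1.17 and 1.28.

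DPPA2 was a low-abundance transcript that rose. It had 10.5 and 11.8 TPM in barasertib libraries, against 5.30 and 5.38 TPM in DMSO libraries. The DMSO libraries were almost equal and the groups did not overlap (1.92-fold, log2 0.94 ± 0.10 SE, limma adjusted p = 0.00226). Its partner DPPA4 had 277 and 293 TPM in barasertib libraries, against 90.4 and 188 TPM in DMSO libraries. The treated libraries of DPPA4 agreed closely, but DMSO replicate 2 was 2.08 times DMSO replicate 1, a gap exceeded by 16 of the 3551 tested genes averaging 50 TPM or more. The DPPA4 change was 2.17-fold (log2 1.12 ± 0.30 SE, 95% interval 0.38 to 1.86, limma adjusted p = 0.039). Its log2 change was 0.59 without DMSO replicate 1 and 1.64 without DMSO replicate 2, so that 1 library sets its size. With either barasertib library left out DPPA4 no longer passed (limma adjusted p = 0.145 without replicate 1 and 0.166 without replicate 2). DPPA4 stood at 26.4 and 24.7 times the TPM of DPPA2 with barasertib and at 17.1 and 35.0 times with DMSO.

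In the hg19 coordinates of the files, DPPA2 (gene ID 151871, chr3:109012635-109035364) and DPPA4 (gene ID 55211, chr3:109044988-109056419) lie 9623 bases apart on the minus strand, and no other tested gene lay within 500 kb of either. DPPA3 (gene ID 359787) lies at chr12:7864050-7870152 on the plus strand. The windows around their start sites, 250 bases before to 50 after, are shown because these 3 genes rose; they are RefSeq sequences of build GRCh38.p14, at chr3:109316468-109316767 (minus strand) for DPPA2, chr12:7711183-7711482 (plus strand) for DPPA3 and chr3:109337497-109337796 (minus strand) for DPPA4. Capitals mark CG dinucleotides, the sites of DNA methylation.
DPPA2: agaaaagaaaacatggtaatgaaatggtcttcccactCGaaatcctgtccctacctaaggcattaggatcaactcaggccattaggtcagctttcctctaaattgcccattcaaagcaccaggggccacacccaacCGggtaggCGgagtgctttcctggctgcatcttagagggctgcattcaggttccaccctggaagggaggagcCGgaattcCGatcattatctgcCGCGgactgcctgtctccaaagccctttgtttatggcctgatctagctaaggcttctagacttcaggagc
DPPA3: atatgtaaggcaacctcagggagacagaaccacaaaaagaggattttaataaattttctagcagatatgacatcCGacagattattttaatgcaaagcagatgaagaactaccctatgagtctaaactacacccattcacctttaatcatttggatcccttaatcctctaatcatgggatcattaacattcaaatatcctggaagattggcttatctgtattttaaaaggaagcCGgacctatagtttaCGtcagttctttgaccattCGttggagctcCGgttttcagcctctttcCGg
DPPA4: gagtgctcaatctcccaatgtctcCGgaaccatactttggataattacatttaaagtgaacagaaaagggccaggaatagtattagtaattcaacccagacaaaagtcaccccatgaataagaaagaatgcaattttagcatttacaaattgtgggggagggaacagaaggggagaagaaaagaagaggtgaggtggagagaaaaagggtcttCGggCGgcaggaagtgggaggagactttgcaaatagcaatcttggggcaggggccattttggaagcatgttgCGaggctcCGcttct
These windows held 7 CG sites for DPPA2, 6 for DPPA3 and 5 for DPPA4, under the median of 14 over 35116 RefSeq windows of 300 bases. The DPPA3 window held the first 7 letters of the POU octamer, ATGCAAA on either strand, 1 time, and none of the other members' windows did; 4.46% of all windows hold it. The GC box GGGCGG, searched on both strands with overlapping matches counted, occurred 1 time in the DPPA4 window and not in those of DPPA2 and DPPA3, against 45.0% of all windows with at least 1 match. A match of letters describes the window and shows no bound factor.

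RefSeq lists 23 DPPA pseudogenes, 12 of them copies of DPPA3, 4 each of DPPA2 and DPPA5, and 3 of DPPA4. Only DPPA2P3 is among the gene IDs analysed here, at 0 TPM in every library. The sources used here do not say how reads that map to several copies were assigned, so part of the DPPA values may come from near-identical copies, and this was not tested.

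Around DPPA3 on chromosome 12, GDF3 and NANOG also rose. GDF3, a TGF-beta family ligand transcribed from the opposite strand with 15660 bases between the genes, had 166 and 171 TPM in barasertib libraries, against 72.4 and 68.1 TPM in DMSO libraries (log2 change 1.25, limma adjusted p = 0.000226). NANOG, a core pluripotency factor whose start site lies 77.9 kb downstream, had 246 and 258 TPM against 168 and 159 TPM (log2 change 0.62, limma adjusted p = 0.00103). Of the 8 tested genes within 500 kb of DPPA3, these were the 2 that rose, and 0 fell, a share near the 22.0% of all tested genes that rose. The median log2 change of those 8 genes was -0.02, against 0.11 over all tested genes. The neighbour on the other side of DPPA3, CLEC4C, was below the filter, at 1.67 and 1.78 TPM against 0 and 0.473 TPM.

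**Figure D2:**
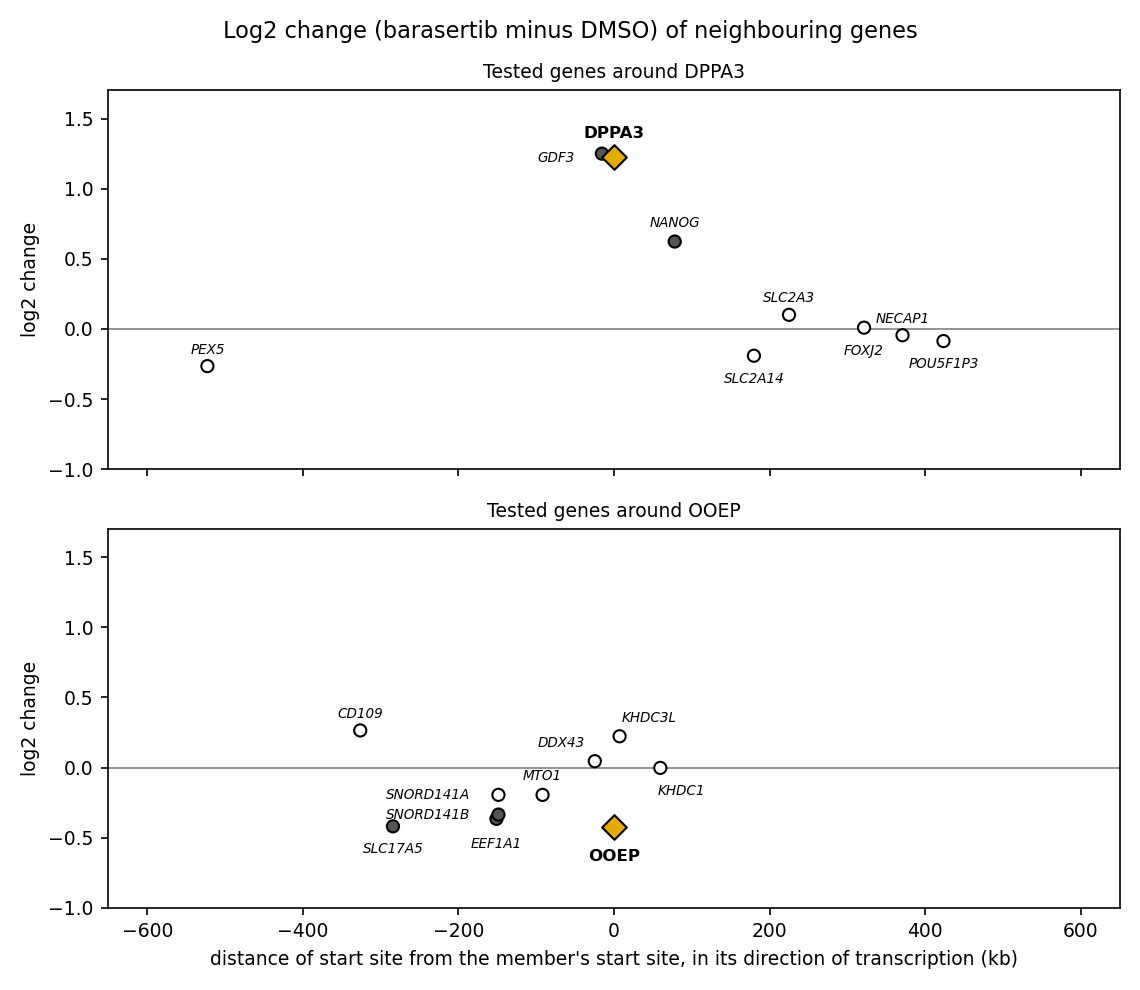
Log2 change (barasertib minus DMSO, vertical axis) of tested genes within 500 kb of DPPA3 (upper) and OOEP (lower), against the distance of their start sites in kb; filled circles passed the test, open circles did not, and the diamond is the member. GDF3 and NANOG stand beside DPPA3 at log2 changes of 1.25 and 0.62, while of the 9 genes around OOEP 3 fell (EEF1A1, SLC17A5 and SNORD141B) and KHDC3L and DDX43, at 0.22 and 0.05, did not pass.

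DPPA5 was at the edge of detection. It had 0.768 and 0.786 TPM in barasertib libraries, against 0.823 and 0.236 TPM in DMSO libraries. The groups overlapped, and 3 of the 4 libraries were nearly equal. Multiplying its coverage by 660, the smallest length that makes all 4 values whole to within 0.01, gives 1008 and 1010 aligned bases with barasertib and 1006 and 303 with DMSO, and the DMSO libraries differed from each other by more than the groups did. Without the filter on low values its log2 change was 0.24 (limma adjusted p = 0.477).

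OOEP, encoded beside DPPA5 in a cluster of KH-domain genes, fell. It had 10.7 and 12.9 TPM in barasertib libraries, against 16.0 and 16.3 TPM in DMSO libraries. The DMSO libraries were nearly equal, the treated ones more spread, and the groups did not overlap (0.744-fold, log2 -0.43 ± 0.10 SE, 95% interval -0.68 to -0.17, limma adjusted p = 0.0283). OOEP no longer passed with barasertib replicate 1 left out (limma adjusted p = 0.0908) or with either DMSO library left out (0.0671 and 0.0770). In hg19, OOEP (gene ID 441161) lies at chr6:74078280-74079515 and DPPA5 (gene ID 340168) at chr6:74062785-74063999, both on the minus strand, with KHDC3L between them on the plus strand. KHDC3L, another subunit of the subcortical maternal complex, had 6.30 and 4.01 TPM in barasertib libraries, against 4.58 and 3.81 TPM in DMSO libraries (limma adjusted p = 0.436). KHDC1, on the far side of DPPA5, was at 12.2 and 12.2 against 11.3 and 13.2 TPM (limma adjusted p = 0.988), and DDX43, an RNA helicase gene on the far side of OOEP, at 47.7 and 45.9 against 44.4 and 46.2 TPM (limma adjusted p = 0.602). Of the 9 tested genes within 500 kb of OOEP, 0 rose and 3 fell, where 7.44% of all tested genes fell, and their median log2 change was -0.19. These 3, picked out for their values, included EEF1A1, a translation elongation factor (log2 change -0.37, limma adjusted p = 0.00109), and SLC17A5, a lysosomal sialic acid transporter (-0.42, limma adjusted p = 0.0186). The other was SNORD141B, a small nucleolar RNA (-0.34, limma adjusted p = 0.0381). Its start site lay at -148.65 kb from that of OOEP, and that of EEF1A1 at -151.24 kb. SNORD141B values may hold reads of EEF1A1, so the tally may count 1 locus more than once, and this was not tested.

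KLF4 and KLF5 also fell, both by less than 1.5-fold. KLF4, one of the original reprogramming factors, had 58.9 and 54.7 TPM in barasertib libraries, against 71.0 and 65.0 TPM in DMSO libraries (0.839-fold, log2 -0.25 ± 0.07 SE, limma adjusted p = 0.0407). KLF5, which shares the zinc finger domain and many targets with KLF4 in mouse stem cells, had 14.1 and 14.5 TPM in barasertib libraries, against 17.3 and 17.8 TPM in DMSO libraries (0.824-fold, log2 -0.28 ± 0.07 SE, limma adjusted p = 0.0371). In neither gene did the groups overlap, and in KLF5 the replicates of each group differed by less than 1 TPM. The calls were close to the threshold. KLF4 no longer passed with either barasertib library left out (limma adjusted p = 0.0734 without replicate 1 and 0.154 without replicate 2) or with DMSO replicate 1 left out (0.173), and KLF5 with any 1 of the 4 libraries left out (0.0883 to 0.150). KLF4 (gene ID 9314) lies at chr9:110247133-110252001 and KLF5 (gene ID 688) at chr13:73629114-73651680 in hg19, and neither had a neighbour within 500 kb that passed the test.

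The start-site windows of OOEP and KLF4 are shown as the counterpart of those of the 3 DPPA genes, since these genes fell; they are RefSeq sequences of GRCh38.p14 at chr6:73369848-73370147 and chr9:107489720-107490019, both minus strand, with CG sites in capitals.
OOEP: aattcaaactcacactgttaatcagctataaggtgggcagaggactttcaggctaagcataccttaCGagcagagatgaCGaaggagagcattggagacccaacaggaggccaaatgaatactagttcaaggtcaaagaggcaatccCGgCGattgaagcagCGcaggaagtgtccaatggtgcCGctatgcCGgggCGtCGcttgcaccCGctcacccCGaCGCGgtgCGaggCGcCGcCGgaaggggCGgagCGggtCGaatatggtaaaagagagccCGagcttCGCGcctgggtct
KLF4: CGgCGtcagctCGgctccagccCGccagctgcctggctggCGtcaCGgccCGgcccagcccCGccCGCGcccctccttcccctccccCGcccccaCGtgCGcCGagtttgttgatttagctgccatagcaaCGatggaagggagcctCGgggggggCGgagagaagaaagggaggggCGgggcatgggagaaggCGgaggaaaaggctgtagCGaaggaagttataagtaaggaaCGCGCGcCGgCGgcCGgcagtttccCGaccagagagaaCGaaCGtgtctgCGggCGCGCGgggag
They held 23 and 33 CG sites, above the median of 14 over all windows, and 1 and 4 GC boxes. The number of CG sites did not follow the direction of change over the members: TFCP2L1, which rose, had the most (43), and KLF5, which fell, had 4 and 37 in its 2 listed windows. Windows were found for 8 of the 9 members.

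TFCP2L1 and SUSD2 rose. TFCP2L1, a factor of the CP2 family that binds with other naive state regulators, had 7.34 and 7.66 TPM in barasertib libraries, against 4.60 and 4.83 TPM in DMSO libraries. Both groups were tight and did not overlap (1.49-fold, log2 0.57 ± 0.10 SE, limma adjusted p = 0.0109), and TFCP2L1 no longer passed with either barasertib library left out (limma adjusted p = 0.0523 and 0.0597). SUSD2 had 38.0 and 33.7 TPM in barasertib libraries, against 21.7 and 20.1 TPM in DMSO libraries. The lower treated library was still more than 1.5 times the higher control (1.68-fold, log2 0.75 ± 0.09 SE, limma adjusted p = 0.00253). SUSD2 (gene ID 56241, chr22:24577444-24585074 in hg19) starts 2847 bases after the end of CABIN1 on the same strand, which was at 26.6 and 23.0 TPM against 23.6 and 23.4 TPM (limma adjusted p = 0.583). Of the 21 tested genes within 500 kb of SUSD2, 5 rose and 3 fell, where 22.0% of all tested genes rose and 7.44% fell. TFCP2L1 (gene ID 29842) lies at chr2:121974164-122042778, and its flanking genes GLI2 and CLASP1 did not pass (limma adjusted p = 0.191 and 0.889).

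**Figure D3:**
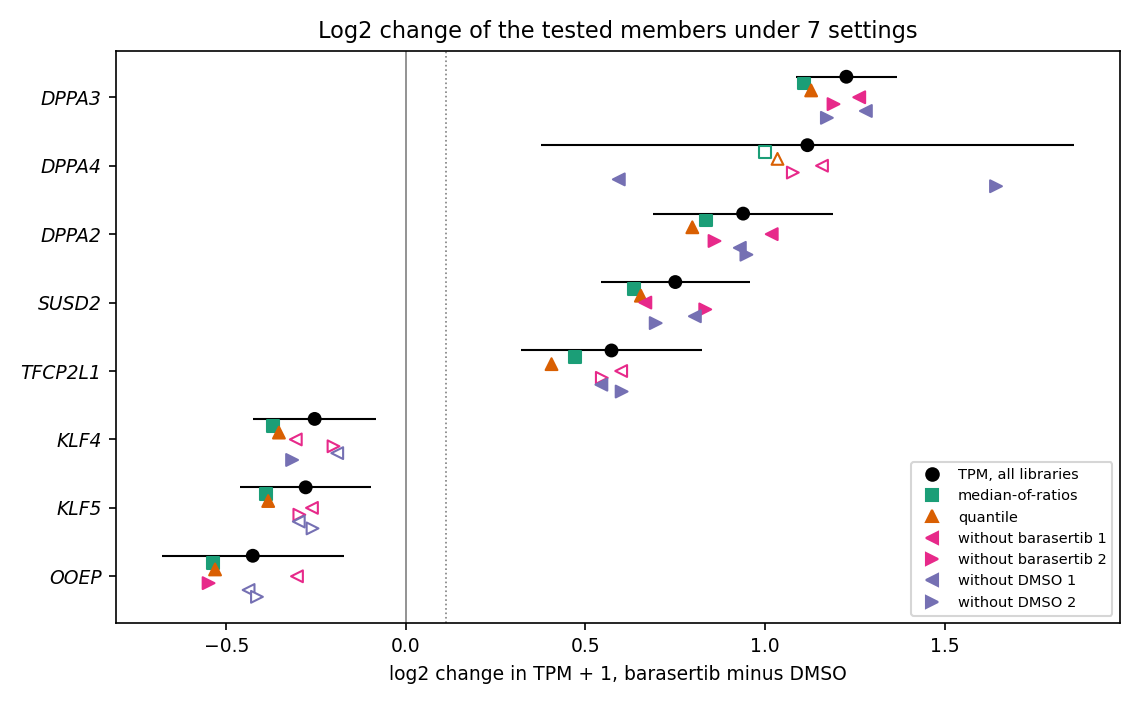
Log2 change in TPM + 1 (barasertib minus DMSO, horizontal axis) of the 8 tested members under 7 settings; filled symbols have a limma adjusted p under 0.05, open ones do not (the legend shows filled symbols), bars are 95% intervals of the fit on all libraries, and the dotted line is the median of all genes. DPPA2, DPPA3 and SUSD2 stay filled throughout, and DPPA4 runs from 0.59 to 1.64 depending on which DMSO library is left out.

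Other genes of the naive state moved in both directions. This list and those below were chosen with earlier results of these data known, so their counts and medians are descriptive only. Of 18 listed, 13 were tested, of which 6 rose, 2 fell and 5 did not pass, with a median log2 change of 0.22 (0.11 over all tested genes, of which 22.0% rose and 7.44% fell). FGF4, a growth factor of the inner cell mass, had 25.8 and 25.7 TPM with barasertib, against 13.8 and 12.8 TPM with DMSO (log2 change 0.90, limma adjusted p = 0.00111). TBX3, a T-box transcription factor, had 4.25 and 3.31 against 2.01 and 1.90 TPM (limma adjusted p = 0.0234), and NLRP7, another maternal complex gene, 5.49 and 4.33 against 3.31 and 2.54 TPM (limma adjusted p = 0.0425). DNMT3L, a cofactor of DNA methyltransferases, was lower, at 17.5 and 17.7 against 30.3 and 35.1 TPM (log2 change -0.86, limma adjusted p = 0.0019). Under all 3 scalings 2 of the list rose and 2 fell, against 10.7% and 7.05% of all tested genes. KLF17 and ARGFX, markers of human naive cells, were under 0.35 TPM in every library, ESRRB was at 0 to 0.207 TPM with barasertib and at 0 with DMSO, and KLF2 was at 0.607 and 1.39 against 0.702 and 0.772 TPM.

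Of 14 listed genes of the primed state, 12 were tested, 8 rose, 2 fell and 2 did not pass, with a median log2 change of 0.55 (0.11 over all tested genes, of which 22.0% rose and 7.44% fell). Under all 3 scalings 8 rose and 2 fell, against 10.7% and 7.05% of all tested genes. THY1, a surface protein of primed cells, had 120 and 111 TPM with barasertib, against 7.83 and 7.15 TPM with DMSO (log2 change 3.78, limma adjusted p = 1.86e-05). SFRP2, a secreted WNT modulator, had 391 and 396 against 128 and 111 TPM, and DUSP6, a phosphatase of ERK, 5.65 and 6.17 against 1.12 and 1.48 TPM. B3GAT1, which makes the CD57 epitope, had 8.48 and 7.70 against 4.28 and 4.94 TPM. Markers of both states lay among the genes that rose. Whether single cells carried both cannot be read from bulk RNA.

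**Figure D4:**
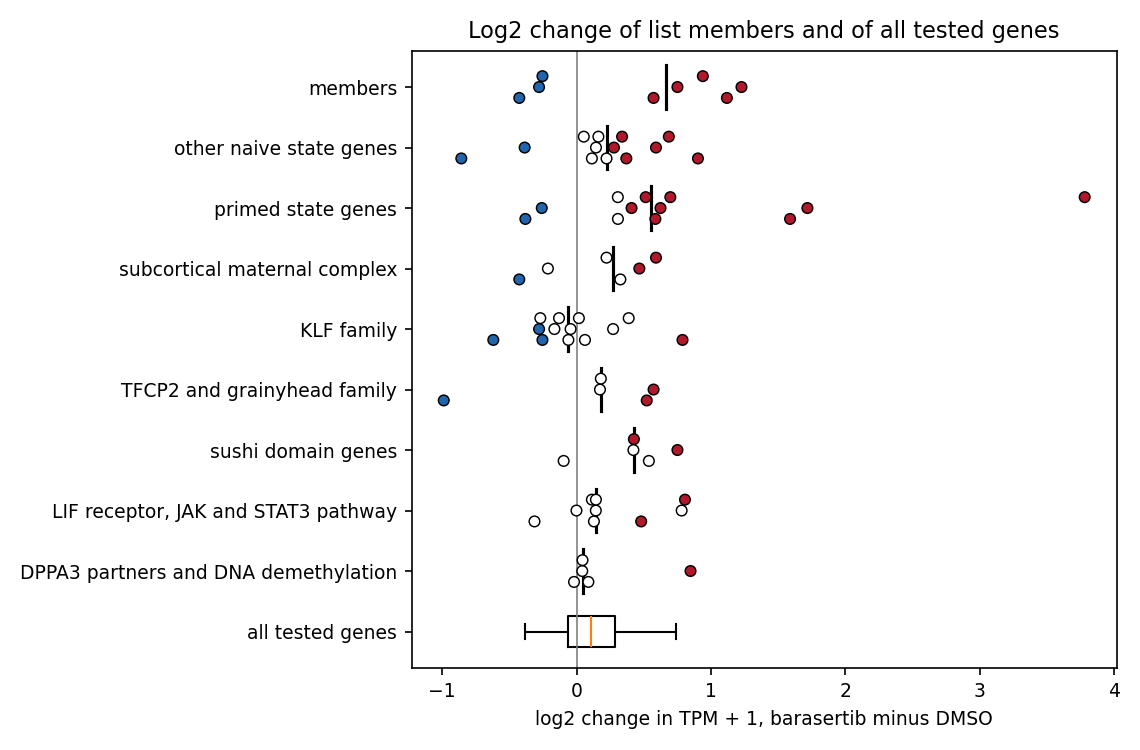
Log2 change in TPM + 1 (barasertib minus DMSO, horizontal axis) of the tested genes of each list, filled where the limma adjusted p was under 0.05 (red higher, blue lower), with list medians as bars; the box shows all tested genes (median, quartiles, 5th and 95th percentiles). The members and the primed list have medians of 0.66 and 0.55, against 0.11 over all tested genes. The lists were chosen with earlier results of these data known, so the medians are descriptive only.

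Partners and relatives of the members were read the same way, against the same 22.0% higher and 7.44% lower. Of the subcortical maternal complex, 6 of 8 genes were tested; NLRP2 (112 and 107 TPM with barasertib, 82.0 and 76.0 TPM with DMSO, limma adjusted p = 0.00384) and NLRP7 rose and OOEP fell, while NLRP5 and PADI6 were at 0 in every library. Of 5 genes of DNA methylation upkeep and removal that DPPA3 acts on or beside, UHRF1 rose, with 32.1 and 30.4 TPM against 16.6 and 17.2 TPM (log2 change 0.85, limma adjusted p = 0.00109), and DNMT1, TET1, TET2 and TET3 did not pass. In the KLF family 13 of 17 were tested, KLF10 rose (20.3 and 18.6 against 10.7 and 10.9 TPM, limma adjusted p = 0.00201), and KLF15 (31.2 and 28.2 against 49.7 and 42.8 TPM, limma adjusted p = 0.00628) fell beside KLF4 and KLF5. The KLF median was -0.06, against 0.11 over all tested genes.

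Among 5 tested relatives of TFCP2L1 (with itself), GRHL1 rose (6.38 and 6.30 against 3.63 and 4.65 TPM, limma adjusted p = 0.0337), GRHL3 fell (15.4 and 14.2 against 27.1 and 33.9 TPM, limma adjusted p = 0.00287), and TFCP2 and UBP1 did not pass. Of 5 tested sushi domain genes SUSD1 rose beside SUSD2 (5.23 and 5.49 against 3.64 and 3.83 TPM, limma adjusted p = 0.0376). Of 9 tested genes of the LIF receptor, JAK and STAT3 pathway, which feeds KLF4 and TFCP2L1 in mouse stem cells, SOCS3 (2.42 and 2.44 against 1.13 and 0.811 TPM, limma adjusted p = 0.0195) and JAK1 (30.3 and 30.0 against 21.6 and 21.0 TPM, limma adjusted p = 0.00461) rose and 0 fell, a share close to the 22.0% of all tested genes. Of the embryonic genome activation genes, which include targets of the DPPA2 and DPPA4 pair in the mouse, 12 of 13 were analysed and CCNA1 alone passed the filter, at 6.80 and 6.79 against 3.05 and 2.70 TPM (log2 change 1.01, limma adjusted p = 0.00277). The other 11, including ZSCAN4 and LEUTX, were near the floor, and each had the higher mean with barasertib. The share of all genes below the filter that did so was not computed. LEUTX, DUXA, DUXB and PRAMEF1 were above 0 in only 1 library each. Without the filter 12 were fitted and 1 rose. MBD3L2 was the highest, at 0.774 and 1.04 TPM with barasertib and 0 and 0.302 TPM with DMSO. KDM4E had 0.209 and 0.454 TPM and TRIM43 0.181 and 0.279 TPM with barasertib, and both were at 0 with DMSO. More gene IDs were above 0 with barasertib (18611 and 18562) than with DMSO (17532 and 17587). The part of depth in these low values was not tested.

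Closest to DPPA3 over the 4 libraries, by Euclidean distance of log2(TPM + 1), were JPT1 (0.37), FABP5 (0.40) and MAD2L1 (0.52), and closest to OOEP were FBXW8 (0.07), XK (0.14) and SUPT3H (0.15). With 4 libraries in 2 groups such likeness describes a shared level and difference only.

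Apart from PDGFRA, markers of yolk sac, trophoblast and fibroblasts were low in both groups. Each of these lists summed higher with barasertib, and of the seminoma markers PDPN and TFAP2C were abundant in both groups. Summed over 8 yolk sac and endoderm genes the level was 1.25 to 2.02 TPM with barasertib and 0.538 to 0.792 TPM with DMSO, with APOB and TTR at 0 throughout, and none was tested. Over 7 trophoblast genes it was 4.18 to 4.62 against 1.39 to 1.57 TPM, with CGB3, CGB5 and KRT7 at 0. GATA3, the 1 tested, did not pass (limma adjusted p = 0.0696). HLA-G, below the filter, was at 1.68 and 1.84 TPM with barasertib and at 0 with DMSO. Without the filter on low values 4 of the 7 were fitted and 1 rose. Of 7 fibroblast genes, COL1A1 was at 1.41 and 0.990 TPM with barasertib against 0.497 and 0.210 TPM with DMSO. COL1A2 was at 0 with barasertib and at most 0.0385 TPM with DMSO. PDGFRA rose (10.0 and 10.6 against 7.02 and 7.63 TPM, limma adjusted p = 0.0196), but not under all 3 scalings. COL3A1, also tested, did not pass (limma adjusted p = 0.484). The summed level of the 7 was 13.6 to 13.8 against 8.70 to 9.94 TPM, mostly PDGFRA. Over 6 seminoma and germ cell genes it was 269 to 272 against 204 to 205 TPM, nearly all from PDPN, which rose (limma adjusted p = 0.00119), and TFAP2C; KIT was at 2.27 and 2.22 against 2.07 and 2.58 TPM, PRDM1 and NANOS3 were under 1 TPM, and SOX17 was at 0 with barasertib and at most 0.0464 TPM with DMSO. The part of these sums in the members' changes was not tested, and in bulk RNA fewer cells of a type and less RNA per cell cannot be told apart.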

How the data were processed

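RNA was extracted from NCC-IT-A3 cells and sequenced as stranded libraries of polyadenylated RNA, per the labels' protocols. The authors aligned reads with HISAT2 to hg19 and used StringTie for gene values, per the submitters' processing notes. The sources used here give no versions and do not say whether strand was used. The deposited TPM is transcript abundance scaled to a library total of 1000000, the deposited FPKM is scaled by length and library size, and the deposited coverage (signal) is the mean depth per base, per the file headers. The files hold no counts and do not state read numbers, so no counting interval was computed.

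From these values, TPM rows were summed per gene ID (27685 IDs, of which 27559 matched RefSeq names). Genes averaging 1 TPM or more across the 4 libraries entered a two-sided limma fit (version 3.58.1, R 4.3.3) of log2(TPM + 1) on group, moderated with a trend on mean level (residual degrees of freedom 2, prior 4.09), and Benjamini-Hochberg adjustment over all 13938 tested genes at a threshold of 0.05. Simulated data served as a check of the fit, in 5 runs of 13938 genes with 200 changed. There the fit called 51% of 1.5-fold and 87.4% of 2-fold changes, and 4.45% of its calls were unchanged genes. The simulation had far fewer changed genes than the 4108 called in the data, and no shift in scaling. Its rates therefore do not carry over to the calls reported here. The 13 alternatives were no filter, a minimum mean of 5 TPM, pseudocounts of 0.1 and 5, FPKM, scaling by median of ratios, quantile normalisation, moderation without the trend, the replicate number as a block, and each library left out in turn. The members and the gene lists were chosen with earlier results of these data known.

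Genes named in the text are the 9 members, their nearest neighbours, up to 4 called genes with the largest change in each list (or the one with the smallest p), the 3 genes closest in level to the member that rose most and to the one that fell most, AURKB, and markers of the labelled cell type; any other gene was picked with its values in view. Promoters are RefSeq windows of GRCh38.p14. Tables were handled in Python 3.11.15 and plots drawn with matplotlib 3.10.9.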

Additional observations from a re-analysis of the deposited data

How the results depend on the processing

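Over the 13 alternatives the 8 tested members kept their direction (DPPA5 could be fitted in 1, without the filter), and DPPA2, DPPA3 and SUSD2 passed in all of them. DPPA4 passed in 7, OOEP, KLF4 and KLF5 in 8 each and TFCP2L1 in 11. Testing all genes without the filter gave 4 rising members and 0 falling, and dropping the mean-variance trend 4 rising and 1 falling (KLF5); the cause was not tested. With 1 library left out, 3 to 5 members rose and 0 to 1 fell. Over all genes, median-of-ratios scaling gave 1668 higher and 1721 lower, quantile normalisation 1649 and 1590, no mean-variance trend 674 lower, and leaving out 1 library 1365 to 2181 higher and 601 to 699 lower.

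Counts of list genes moved as follows. Without the filter the rising genes numbered 3 (naive), 1 (maternal complex), 1 (sushi) and 1 (TFCP2 family), and the falling ones 1 (KLF), 1 (primed), 0 (maternal complex) and 2 (TFCP2 family). With median-of-ratios scaling 3 naive, 1 maternal complex, 1 sushi and 1 TFCP2 family gene rose and 5 KLF genes fell. With quantile normalisation 2 naive, 1 maternal complex, 1 sushi, 1 TFCP2 family and 1 LIF pathway gene rose, and 5 KLF and 1 LIF pathway gene fell. A minimum of 5 TPM left 1 maternal complex, 1 sushi and 0 genome activation genes rising, and FPKM 1 LIF pathway gene. Without the trend 2 KLF and 1 maternal complex gene rose, and 1 primed and 0 maternal complex genes fell. With 1 library left out, the ranges were 2 to 3 naive, 1 to 3 maternal complex, 1 sushi, 0 to 2 TFCP2 family and 1 to 3 LIF pathway genes rising, and 1 to 2 KLF, 1 to 2 primed and 0 to 1 maternal complex genes falling.

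The labels number the replicates in both groups, but nothing says that a number marks a shared culture, and with the replicate block 3218 genes rose and 1080 fell, the same 5 and 3 members passed, and 2 KLF genes rose; deviations of same-numbered libraries correlated at r = 0.02 across genes. DPPA5 rested on 303 to 1010 aligned bases a library; read depth per gene was not computed for others.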

Other observations

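KLF6, named after its values were seen, differed more between replicates than between groups, at 11.6 and 31.9 TPM with barasertib and 8.97 and 23.2 TPM with DMSO (limma adjusted p = 0.623). Replicate 2 was the higher library in both groups.

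GRHL2, an epithelial transcription factor of the family that holds TFCP2L1, was below the filter, at 0.0288 and 0.0589 TPM with barasertib and 1.28 and 1.53 TPM with DMSO. Without the filter all 6 genes of the family were tested and 2 fell, GRHL3 and GRHL2. Its relatives GRHL1 and GRHL3 changed in opposite directions. PIM1, a kinase gene downstream of STAT3, was at 42.4 and 38.2 TPM with barasertib and 30.7 and 17.2 TPM with DMSO (limma adjusted p = 0.0556), with DMSO libraries that differed as those of DPPA4 did but in the other direction.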
